A study of Mus musculus with 2 samples.

Results

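The TAL1-LMO2 complex genes and the E protein genes were followed here through their H3K27ac peaks in mouse MLL-AF9 leukaemia (MA9) cells. The 9 genes were taken by name: Tal1, Lyl1, Lmo2, Lmo4, Ldb1, Cbfa2t3, Tcf3, Tcf4 and Tcf12, of 21887 protein-coding genes on chromosomes 1 to 19, X and Y. Every peak of either list that touched a gene or the 100 kb on both sides of it was taken, which gave 98 of 34272 peaks in Gata2 f/f and 88 of 37234 in Gata2 KO (mm10). Acetylation of histone H3 at lysine 27 (H3K27ac) marks active promoters and enhancers, and ChIP-seq maps it by sequencing the DNA bound to the modified histone.

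The control library (Gata2 f/f, n = 1) came from cells with both Gata2 alleles floxed, the other (Gata2 KO, Gata2 -/-, n = 1) from cells in which Gata2 was deleted. Both came from leukaemic bone marrow of primary animals that was transduced with Cre or with the control vector MIT, sorted on GFP and tdTomato, and cultured for 7 to 9 days with IL-3, IL-6 (10 ng/mL) and SCF (20 ng/mL). The number of animals behind each library is not given in the sources used here. With 1 library per genotype no difference below has a replicate check, no test between genotypes was possible, and every comparison describes these libraries.

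TAL1 and its relative LYL1 are basic helix-loop-helix proteins that bind DNA at E-boxes only when paired with an E protein, encoded by Tcf3 (E2A), Tcf4 (E2-2) or Tcf12 (HEB). LMO2, a LIM-only protein that does not bind DNA itself, joins such a pair to a GATA factor and to LDB1, whose self-association can bring distant bound sites together. In haematopoietic stem and progenitor cells GATA2 is a GATA factor of this complex, and CBFA2T3 (ETO2) is a corepressor recruited to it. LMO4 is a related LIM-only protein that also binds LDB1.

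The genotype labels were checked only in part, since H3K27ac peaks do not show whether coding sequence was deleted, and peaks covered 11.7% of Gata2 and its 100 kb flanks in f/f and 7.10% in KO. Of 6 genes of MLL-AF9 and myeloid cells (Hoxa9, Meis1, Spi1, Cebpa, Ptprc and Myb) all 6 had a peak within 1 kb of a gene end in f/f and 4 in KO. In KO the peaks nearest to Hoxa9 and Meis1 lay between 1 and 5 kb from their ends. Of the T cell, endothelial and liver genes Cd3e, Cdh5 and Alb, only Alb had one, in both lists. A peak at an end of Xist was listed for f/f and not for KO, while the Y chromosome held 4 peaks in KO and 0 in f/f, so that the libraries also differ in marks of sex. The peak lists cannot tell animals of different sex from a library with a wrong label, and a wrong label would change what each comparison of KO with f/f means. By the peak caller's own -log10 p, the median was 12.2 over the f/f list and 9.41 over the KO list. Read depth is unknown. The part of sex or of peak calling in any difference below was not tested.

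The DNA before the starts of Tal1, Lyl1 and Tcf12 is shown. Of the genes in the promoter table, these had less coverage in KO over the gene and its 100 kb flanks. A peak nonetheless lay within 500 bp of each of these starts in both libraries. The sequences are from RefSeq (GRCm38.p6, the mm10 build), run 5′ to 3′ toward the gene and stop at its outermost base. Capitals mark E-boxes (CANNTG), the GATA motif AGATAA and the ETS motif GGAAGT, each read on both strands, so that AGATAA also appears as TTATCT and GGAAGT as ACTTCC.
Tal1, chr4:115056176-115056425, plus strand: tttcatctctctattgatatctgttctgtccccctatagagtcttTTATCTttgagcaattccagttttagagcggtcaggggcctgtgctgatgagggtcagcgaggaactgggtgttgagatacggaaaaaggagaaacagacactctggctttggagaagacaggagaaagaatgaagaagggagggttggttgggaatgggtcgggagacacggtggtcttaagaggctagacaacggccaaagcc
Lyl1, chr8:84701207-84701422, plus strand: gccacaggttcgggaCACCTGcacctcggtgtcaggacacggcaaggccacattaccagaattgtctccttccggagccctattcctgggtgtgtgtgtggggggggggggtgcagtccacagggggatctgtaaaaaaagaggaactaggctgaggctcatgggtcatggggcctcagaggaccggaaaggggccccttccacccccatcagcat
Tcf12, chr9:72111894-72112069, minus strand: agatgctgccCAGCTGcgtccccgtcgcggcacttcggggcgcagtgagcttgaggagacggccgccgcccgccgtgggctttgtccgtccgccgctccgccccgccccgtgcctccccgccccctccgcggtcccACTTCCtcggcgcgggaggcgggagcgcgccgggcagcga

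The Tal1 stretch holds 1 AGATAA and no E-box, the Lyl1 stretch 1 E-box, and the Tcf12 stretch 1 E-box of the form CAGCTG and 1 GGAAGT. Among 32851 listed mouse promoters, the 250 bases before the start held CANNTG in 66.2%, CAGCTG in 13.0%, AGATAA in 10.0% and GGAAGT in 19.7%. Of the starts listed for the 9 genes, that of Cbfa2t3 at 122699109 on chromosome 8 had the most matches, with 4 CANNTG, of which 2 are CAGCTG, and 2 GGAAGT. A match is a description of the letters only. The promoter table has 15 starts for 7 of the genes, and Lmo2 and Tcf4 are not in it.

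At the starts themselves the libraries were alike in the presence of peaks. A peak lay within 500 bp of 13 of the 15 listed starts in f/f and of 14 in KO, and 13 had one in both. The start without a peak in either list was an inner one of Ldb1. The start with a KO peak alone was the inner start of Cbfa2t3 (chromosome 8, 122678175), where the KO peak was 463 bp wide with a -log10 p of 4.26, below the KO median. By gene ends, 7 of the 9 genes (all but Lmo2 and Ldb1) had a peak within 1 kb of an end in both libraries, as did 47.6% of all protein-coding genes. None had such a peak in 1 library with the other list blank within 5 kb, against a background of 1.83% of genes for f/f alone and 1.60% for KO alone. Ldb1 had its peaks at 2 inner listed starts. At Lmo2 an f/f peak stopped 1.5 kb short of the gene and the KO peak over it stopped 0.155 kb short.

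Differences lay in how much of each locus was covered. With 100 kb flanks and all listed peaks, KO peaks covered less of Tal1, Lyl1, Tcf4 and Tcf12. Coverage in KO was lower for these 4 of 9 genes and higher for 5 (Lmo2, Lmo4, Ldb1, Cbfa2t3 and Tcf3), where the background over the 18321 protein-coding genes with any peak is 41.0% lower and 59.0% higher. This split depends on the settings. Over 5 other choices of calls or flanks, the sign held each time for Tal1, Tcf4 and Tcf12, and turned in 1 of 5 for Lyl1, Lmo4 and Ldb1, in 2 of 5 for Lmo2 and Tcf3, and in 4 of 5 for Cbfa2t3. The median difference was 0.33 percentage points for the 9 genes, which is the value of Cbfa2t3 itself, and 0.17 for all genes. The median of the 9 was -0.52 with a -log10 q of 5 or more, 0.062 with equal peak numbers, -0.85 with 3-fold or greater enrichment, -0.26 with 25 kb flanks and -1.40 with 50 kb flanks, so that no direction is given for the set. Past a 1.5-fold difference in covered bases, 3 of the 9 were lower in KO (Tcf4, Tcf12 and Tal1), where the background is 7.52% of genes. None was higher by that factor, where it is 10.2%. Tcf4 holds a stretch that was chosen as a run of f/f peaks, with 8.07 of its 14.6 kb under f/f peaks. Its place among the 3 follows in part from that choice, so that this count is a description.

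**Figure D1:**
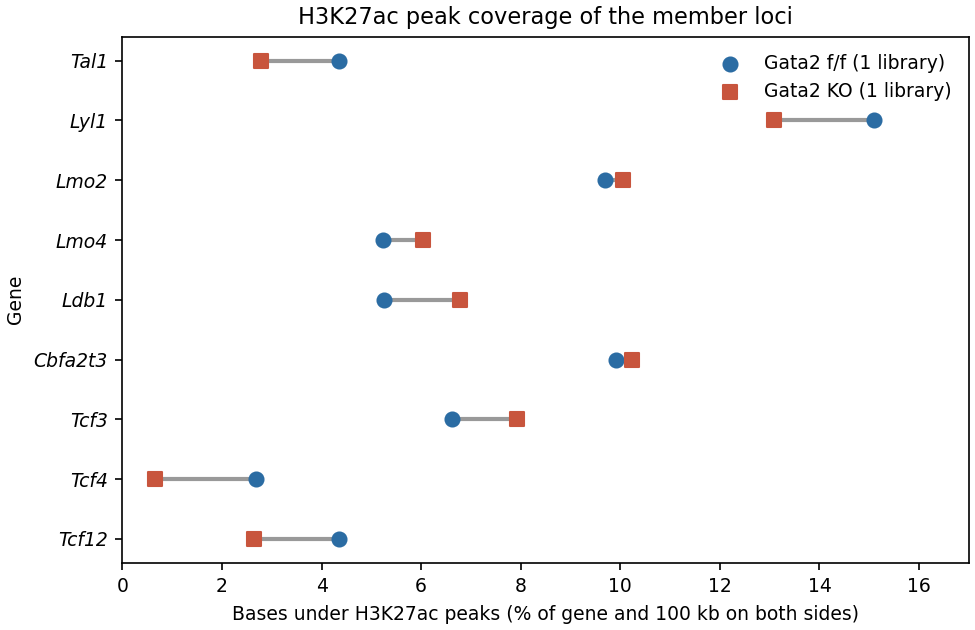
Percent of bases of each gene and its 100 kb flanks under H3K27ac peaks (x axis) in the f/f library (circles) and the KO library (squares), 1 library each, with a line joining both values of a gene. Tcf4, Tcf12, Tal1 and Lyl1 have the KO square to the left of the f/f circle, and the other 5 genes have it to the right, Cbfa2t3 by 0.33 points, a sign that turned in 4 of 5 other settings.

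Under stricter calls the picture of the set shifted. The same limits were set on both lists, whose median fold enrichment was 3.51 in f/f and 3.09 in KO. The part of this difference between the lists in the counts was not tested. With a -log10 q of 5 or more, coverage was lower in KO for 8 of the 9 genes, where 54.7% of all genes were lower, and with 3-fold or greater enrichment for 7 of 9, where 68.9% were. Only Tcf4 stayed past 1.5-fold under these, with a KO to f/f ratio of 0.143 and 0.182. That is 1 of 9 genes, where 11.8% and 22.1% of all genes were lower by that factor, so that the count is no higher than the background. Tal1 had ratios of 0.773 and 0.676, and Tcf12 0.738 and 0.723.

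Tal1 encodes the helix-loop-helix factor at the core of the complex. Its locus (chromosome 4, 115056426 to 115071755, plus strand) had 10 peaks in f/f and 6 in KO, covering 9.35 kb (4.34% of the window) and 5.98 kb (2.78%). The gene-end peak at the listed start, whose upstream sequence is printed above, was of nearly equal width, 1072 bp in f/f (115056472 to 115057543) and 1088 bp in KO (115056442 to 115057529). This peak began inside the gene in both libraries, 0.046 kb (f/f) and 0.016 kb (KO) past the start. A peak that ended 3.33 kb upstream in f/f, and 3.49 kb in KO, was shared too, 536 bp wide in f/f against 389 bp in KO.

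The peaks of 1 list alone at Tal1 lay on both sides of the promoter, with 3 f/f peaks downstream of it. The f/f list had an interior peak 6.68 kb from the start (115063104 to 115063538, 435 bp) that no KO peak overlapped. A further f/f peak of 1044 bp began 18.7 kb from the start (115075173 to 115076216, 3.42 kb past the gene), and another of 638 bp began 39.5 kb from it (115095909 to 115096546). KO had no peak over either. Known enhancers of Tal1 active in stem cells and in erythroid cells lie downstream of the gene, between it and Pdzk1ip1 and beyond. All 3 of these f/f peaks were weak for their list (median -log10 p 12.2), at 4.73, 9.77 and 4.57. In the f/f list 29.9% of such peaks had no KO peak, against 2.52% of the stronger ones. The 2 other f/f peaks without a KO peak lay upstream, at and in the neighbouring Cmpk1, a nucleotide kinase gene. There 1 KO peak in Cmpk1 had no f/f peak. The strong peaks at the ends of Cmpk1 and of Stil, a centriole gene, were in both lists.

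Lyl1 encodes the factor most like TAL1, which can take its place in such complexes. It is a short gene (chromosome 8, 84701423 to 84704716, plus strand) and lay wholly under 1 broad peak in both libraries, 11107 bp wide in f/f (84697707 to 84708813) and 9290 bp in KO (84699200 to 84708489). This peak also reached ends of the neighbours Trmt1, a tRNA methyltransferase gene, and Nfix, a nuclear factor I gene, so that it is not a peak of Lyl1 alone. Of 7 f/f peaks in the window all 7 overlapped a KO peak, and of 9 KO peaks 8 overlapped an f/f peak. Covered bases were 30.7 kb in f/f (15.1%) and 26.6 kb in KO (13.1%). The widest difference in this window lay at the immediate early gene Ier2, where 1 f/f peak of 9871 bp stood against 2 KO peaks of 574 and 4567 bp. This f/f peak ended 35.1 kb from Lyl1. With 25 kb flanks, which leave it out, coverage was near equal, at 30.9% in f/f and 30.7% in KO. Inside Nfix a peak 17.7 kb beyond Lyl1 in f/f (17.8 kb in KO) went the other way, 1787 bp in f/f against 3378 bp in KO. With at least 3-fold enrichment, which the broad Lyl1 peak did not reach in either list (1.72 and 1.62), the difference turned to 0.62 points in favour of KO.

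Lmo2 encodes the bridging subunit. Its locus (chromosome 2, 103957903 to 103981878) had 14 peaks in f/f and 13 in KO, 12 of each shared. Covered bases were near equal, at 21.7 kb (9.69%) and 22.5 kb (10.1%). The small difference turned to -0.25 points with a -log10 q of 5 or more and to -1.21 with 3-fold or greater enrichment, and was 3.13 with 25 kb flanks. The main interior peak was 4386 bp wide in f/f (103967179 to 103971564) and 3806 bp in KO (103967686 to 103971491), with a -log10 p of 102 and 60.4 within their lists. Below the gene's lower coordinate both lists had a row of 8 distal or gene-end peaks reaching to 61.1 kb (f/f) and 61.2 kb (KO) from it. They changed in opposite directions. The peak next to the gene was 937 bp in f/f against 2441 bp in KO, and the one 21.9 kb away in f/f (22.4 kb in KO) was 1911 and 3789 bp. The one 48.8 kb away in f/f (50.4 kb in KO) went the other way, 3434 bp in f/f against 1834 bp in KO, as did the next one out, 1035 and 573 bp. Known enhancers of Lmo2 lie on this side. The 3 peaks in 1 list alone were weak calls: 1 in f/f 76.3 kb away, 1 in f/f at Cd59b and 1 in KO inside Fbxo3.

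**Figure D2:**
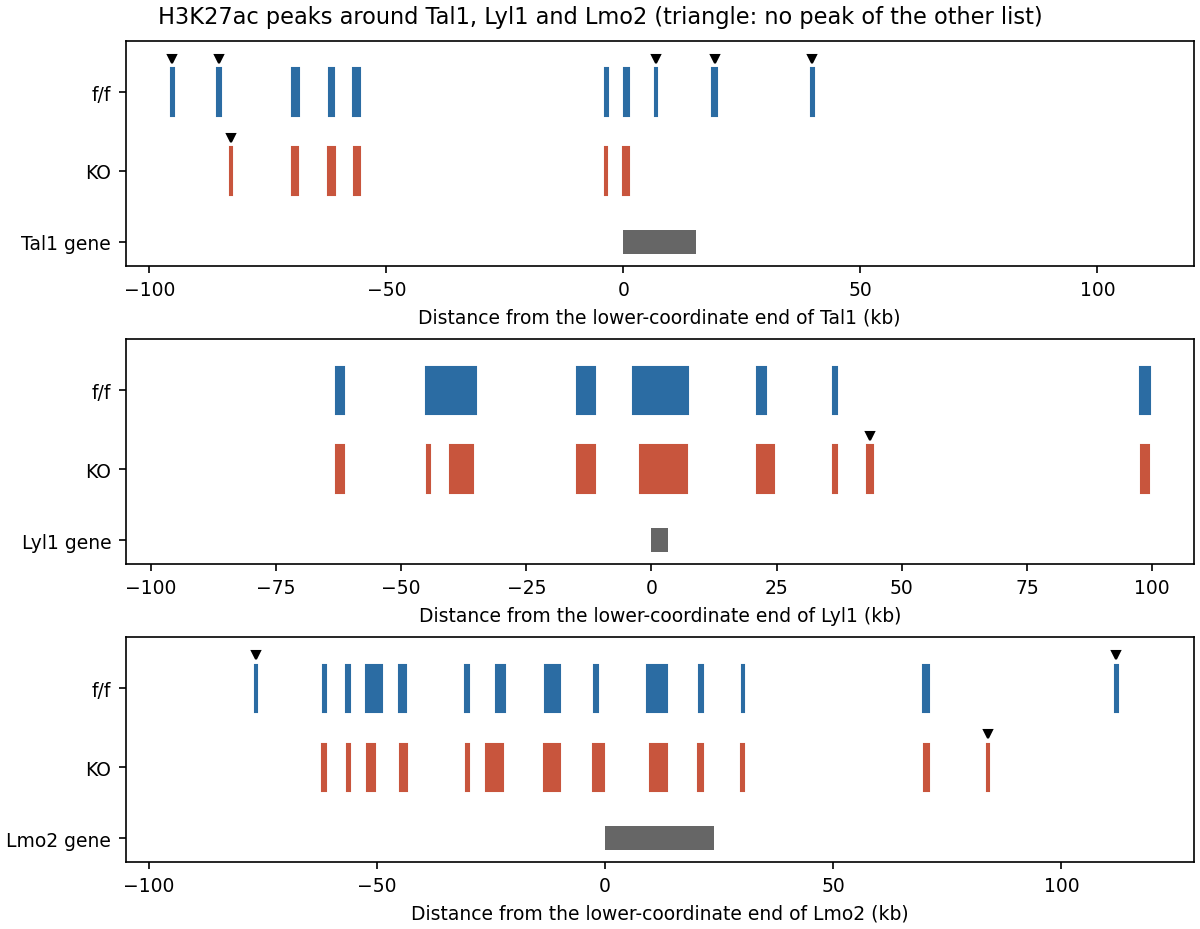
Peaks of the f/f list (upper row of each panel) and the KO list (lower row) around Tal1, Lyl1 and Lmo2, drawn to scale with a thin outline against kb from the gene's lower coordinate, the gene itself as a grey bar. Triangles mark peaks with no peak of the other list, 5 in f/f and 1 in KO at Tal1, 0 and 1 at Lyl1, and 2 and 1 at Lmo2.

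Lmo4, the related LIM-only gene (chromosome 3, 144188530 to 144205255, minus strand), had 6 peaks in f/f and all 6 were shared. KO had 9, of which 7 were shared. The peak over its 3 listed starts was a single one of 4126 bp in f/f (144201970 to 144206095). In KO it was split into peaks of 758 bp (144201869 to 144202626) and 3083 bp (144204304 to 144207386), and all 3 starts were still under a peak. KO alone had a peak of 771 bp 4.10 kb below the gene, with a -log10 p of 4.79, and one of 1361 bp 32.7 kb above it (144237921 to 144239281). The latter, with a -log10 p of 9.55 against a KO median of 9.41, was the only KO peak at or above that median at the 9 loci with no f/f peak. In the whole KO list 4.23% of such peaks were alone. The coverage difference of Lmo4, 0.80 points, turned to -0.60 with 3-fold or greater enrichment.

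Ldb1 encodes the self-associating scaffold (chromosome 19, 46031525 to 46048145, minus strand). All 8 f/f peaks of its window were shared, and 8 of 11 KO peaks. The peaks at 2 of its 3 listed starts hardly differed in width, 1303 bp in f/f against 1309 bp in KO at the start at 46045311, and 1716 and 1616 bp at the start at 46039621. Over the 8 peaks paired 1 to 1 the median KO to f/f width ratio was 0.981. The rise in covered bases from 11.4 kb in f/f to 14.7 kb in KO came chiefly from 3 KO peaks with no f/f peak, 869 bp inside Pprc1, a coactivator gene, and 1086 and 1448 bp 56.4 and 62.3 kb beyond Ldb1. Their -log10 p lay between 3.01 and 6.77, below the KO median, and in the KO list 40.9% of peaks below the median had no f/f peak. With a -log10 q of 5 or more the difference, 1.52 points, went to -0.049.

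Cbfa2t3, the corepressor gene (chromosome 8, 122625136 to 122699332, minus strand), had 13 peaks in each library, 12 of the f/f and 11 of the KO peaks shared, and near equal coverage of 27.2 kb (9.91%) and 28.1 kb (10.2%). The widths of its peaks did differ. The peak at its outer listed start was 6508 bp in f/f (122697145 to 122703652) and 4070 bp in KO (122698901 to 122702970), and the distal peak 11.9 kb (KO 12.4 kb) beyond the gene was 1564 bp in f/f against 734 bp in KO. Inside the gene, the peak 64.1 kb (f/f) and 63.7 kb (KO) from the lower coordinate was 494 bp in f/f against 883 bp in KO. On the far side, where the gene-dense stretch of Galns, Cdt1 and Piezo1 lies, a peak inside Galns was 3372 bp in f/f against 1565 bp in KO, and the one between Galns and Trappc2l 1394 and 3095 bp. The coverage difference of 0.33 points went to 0.062 with equal peak numbers from each list and lay between -1.46 and -0.58 in the other 4 settings.

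With all listed peaks and 100 kb flanks the 3 E protein genes went apart. Tcf3 had slightly more coverage in KO, and Tcf4 and Tcf12 less. Tcf3 (chromosome 10, 80409541 to 80433976, minus strand), which encodes the E12 and E47 proteins, had 12 f/f peaks, 11 of them shared, and 11 KO peaks, 10 of them shared. The peak over its listed start was 1573 bp in f/f (80432828 to 80434400) and 1683 bp in KO (80432873 to 80434555). Covered bases were 14.9 kb (6.63%) in f/f against 17.8 kb (7.93%) in KO. Most of that rise lay 65.8 kb or more below Tcf3, near Pcsk4 and Adamtsl5, where KO peaks of 4000 and 1988 bp stood over f/f peaks of 1200, 1145 and 961 bp. Inside the gene, KO alone had a weak peak of 505 bp. With a -log10 q of 5 or more the difference turned to -0.19 points, and with 3-fold or greater enrichment to -1.47. Under both of these limits all 3 E protein genes were lower in KO.

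Tcf4, which encodes E2-2 and is known for its part in plasmacytoid dendritic cells, had the lowest KO to f/f ratio of the 9, in all settings run. In percentage points its difference, -2.02, was near that of Lyl1, -2.01, and in 4 of 5 other settings Lyl1 or Tal1 had a larger one. The gene spans 344.5 kb (chromosome 18, 69343429 to 69687967), with 11 peaks in its window in f/f and 4 in KO. Peaks covered 14.6 kb (2.68%) in f/f against 3.61 kb (0.662%) in KO, at a ratio of 0.247. All 4 KO peaks overlapped f/f peaks. The gene-end peak, 2764 bp wide in f/f (69343875 to 69346638), appeared in KO as peaks of 700 and 496 bp. An interior peak 71.9 kb from the lower coordinate was 1208 bp in f/f against 1099 bp in KO, and one at 231.5 kb was 1868 and 1310 bp.

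Beyond that, a stretch of 81.1 kb within Tcf4, from 242.6 to 323.6 kb from the lower coordinate (69586002 to 69667057), carried 7 f/f peaks and no KO peak. They were 627 to 2380 bp wide and covered 8.07 kb in all, with fold enrichments of 2.12 to 3.79. The widest (69592337 to 69594716) had a -log10 p of 19.1 and was the only f/f peak at or above its list's median at the 9 loci with no KO peak. The other 6 lay below that median, down to 4.41. In the KO list the blank ran on past the gene, the peak after 69576546 on chromosome 18 being at 70435851, 859.3 kb away, and 9 f/f peaks lay in that gap. Such runs occurred in both directions. Of 37210 gaps between KO peaks, 13 held at least 7 f/f peaks and 4 at least 9, this one included. Of 34252 gaps between f/f peaks, 14 held at least 7 KO peaks and 7 at least 9. This stretch was chosen because it is such a run of f/f peaks, so that its presence is a description. A peak list has no value where no peak was called, so that the level of acetylation across this stretch in KO is not known. The covered shares of Tcf4 in both libraries were closest to those of Faim (2.78% in f/f and 0.622% in KO), Fam155a (2.64% and 0.557%) and Ccdc54 (2.52% and 0.738%), by Euclidean distances of 0.101, 0.114 and 0.178 points over the 2 libraries.

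Tcf12, which encodes HEB, also had neighbouring interior f/f peaks without a KO peak, though fewer than Tcf4 and all of them weak. The gene spans 267.6 kb (chromosome 9, 71844252 to 72111893, minus strand), with 17 peaks in its window in f/f and 12 in KO, 10 of each shared. Covered bases were 20.3 kb (4.35%) and 12.3 kb (2.64%). The gene-end peak over the outer starts was 1816 bp in f/f (72110568 to 72112383) and 1622 bp in KO (72110732 to 72112353). In both lists this peak also covered the sequence printed above. The strong distal peak 20.7 kb before the gene was 1319 bp in f/f against 1262 bp in KO. The weak peak at the inner listed start (71896096) was found in both, 496 and 509 bp wide. Between interior peaks at 106.7 and 243.9 kb from the lower coordinate, which both lists shared at nearly the same width (2029 and 2055 bp, 1857 and 1855 bp), f/f had 5 further peaks of 437 to 1697 bp and KO none. All 5 were weak, with a -log10 p of 3.15 to 8.21. Over the whole f/f list 29.9% of peaks below the median had no KO peak. That share is for single peaks, and runs of 5 were not counted. A distal peak in Cgnl1, 72.4 kb below the gene, was 2211 bp in f/f against 793 bp in KO.

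**Figure D3:**
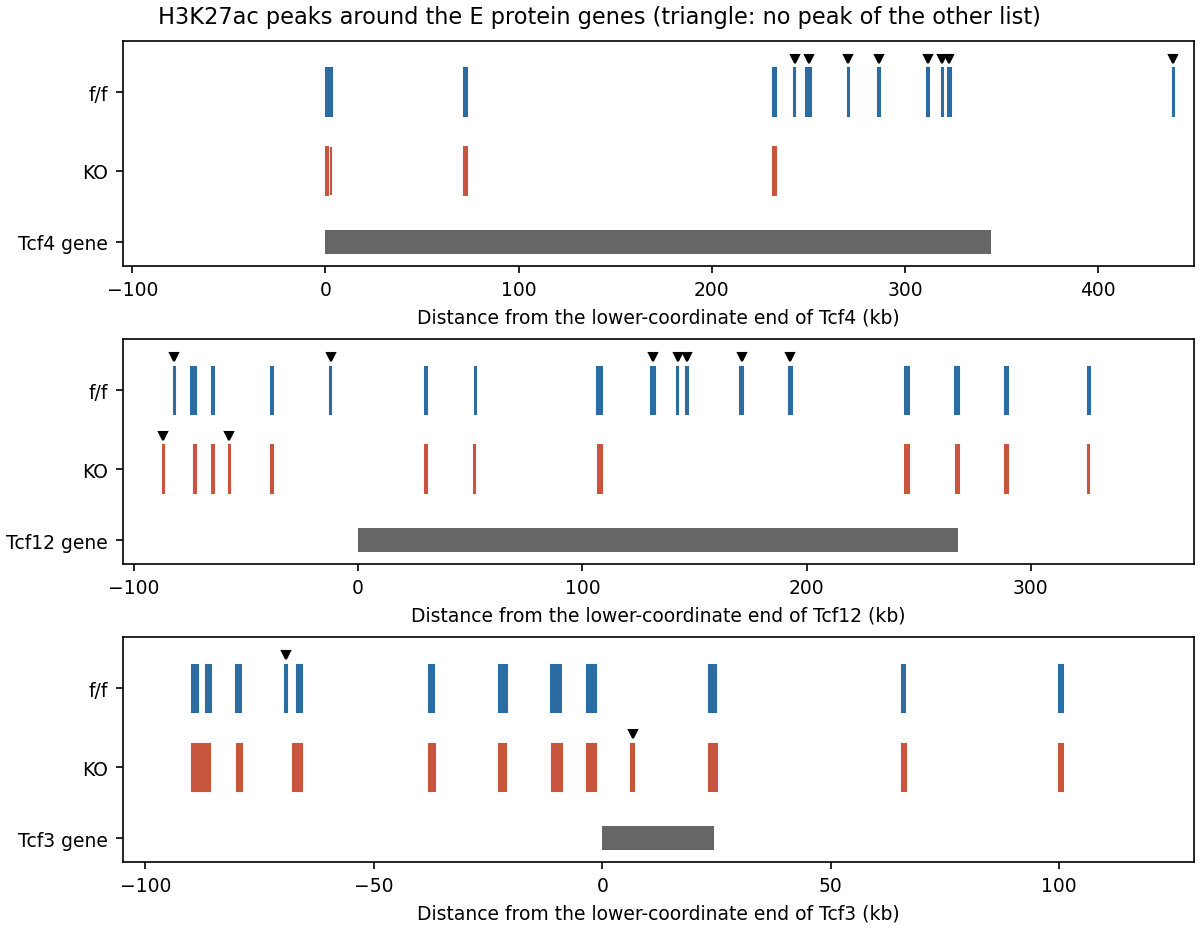
Peaks of the f/f list (upper row) and the KO list (lower row) around Tcf4, Tcf12 and Tcf3, drawn to scale with a thin outline against kb from the gene's lower coordinate, the gene as a grey bar. Triangles mark peaks with no peak of the other list, and 7 of them stand together in the part of Tcf4 beyond 242.6 kb and 5 in the middle of Tcf12.

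By position, the f/f peaks without a KO peak included 13 interior ones, those in the gene but not at its ends, of which 7 are the chosen Tcf4 stretch. Gene-end peaks of the 9 genes numbered 7 in f/f and 8 in KO and all overlapped a peak of the other list, where over all genes 6.27% of f/f and 6.99% of KO peaks at a gene end were alone. Of the interior peaks, 13 of 25 in f/f (52.0%) had no KO peak and 2 of 16 in KO (12.5%) had no f/f peak. The same background over all genes was 20.3% in f/f and 29.0% in KO. Without Tcf4, 6 of 16 interior f/f peaks (37.5%) and 2 of 13 interior KO peaks (15.4%) were alone. Of those 6, 5 lay in Tcf12, and inside the other 7 genes 1 of 7 f/f and 2 of 9 KO peaks were alone. At ends of neighbouring genes 3 of 25 f/f peaks and 0 of 22 KO peaks were alone, beside the gene-end backgrounds just given. Elsewhere in the flanks 8 of 41 and 11 of 42 were alone, where 20.5% of f/f and 28.6% of KO peaks away from gene ends were.

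**Figure D4:**
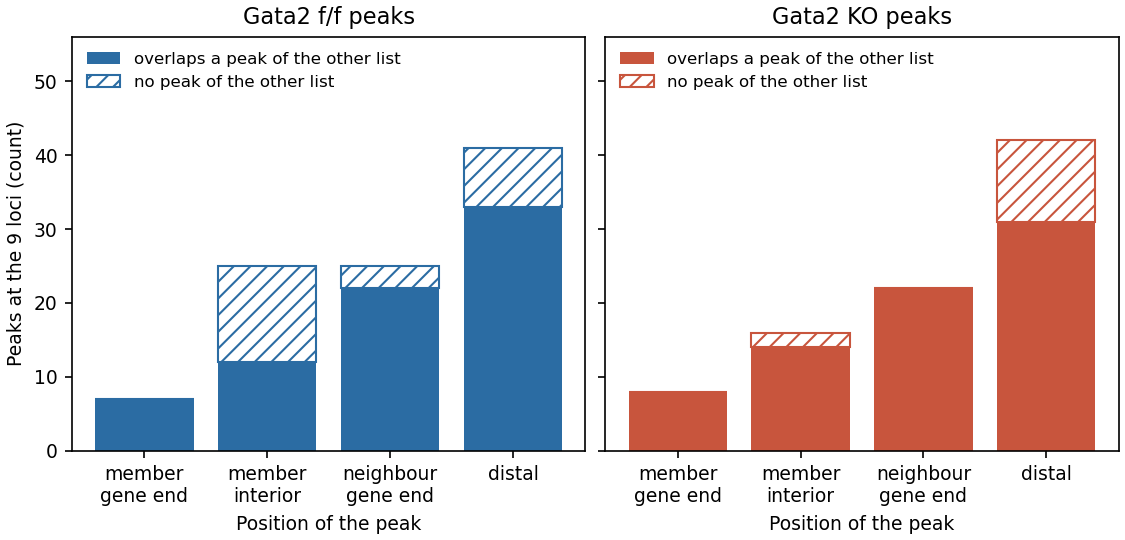
Number of peaks at the 9 loci by position (x axis) in f/f (left) and KO (right), filled where a peak of the other list overlaps by at least 1 bp and hatched where none does. The hatched part is largest among interior f/f peaks, with 13 of 25, 7 of them in the Tcf4 stretch.

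In all, 74 of 98 f/f peaks (75.5%, 95% Wilson interval 66.1 to 83.0) overlapped a KO peak, and 75 of 88 KO peaks (85.2%, 76.3 to 91.2) an f/f peak. These intervals hold counting error alone, and peaks of 1 locus are not independent. Peaks alone made up 24.5% of the f/f peaks at the 9 loci, against 16.2% of the whole f/f list, and 14.8% of the KO peaks, against 22.6%. Without Tcf4 the f/f share was 18.4% and the KO share 15.5%. Of the stronger peaks, from the median -log10 p of the list upward, 50 of 51 in f/f and 53 of 54 in KO were shared, near the whole lists, where 97.5% and 95.8% of such peaks were. Of the peaks below the median, 23 of 47 in f/f (48.9%) and 12 of 34 in KO (35.3%) were alone. Over the whole lists 29.9% and 40.9% of such peaks were. The weak f/f peaks of the chosen Tcf4 stretch are among those alone.

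Shared peaks were on the whole as wide in KO as in f/f. The 67 peaks paired 1 to 1 at the 9 loci had a median KO to f/f width ratio of 0.987, and the 28349 such pairs of both lists 0.991. Of the 67, 37 were narrower in KO, against a background of 52.2%. At least 1.5-fold narrower were 7, where the background is 9.94%, and at least 1.5-fold wider 7, where it is 10.3%. Those 14 lay at Lmo2 (5), Cbfa2t3 (5), Tcf12 (2), Lyl1 (1) and Tcf3 (1).

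**Figure D5:**
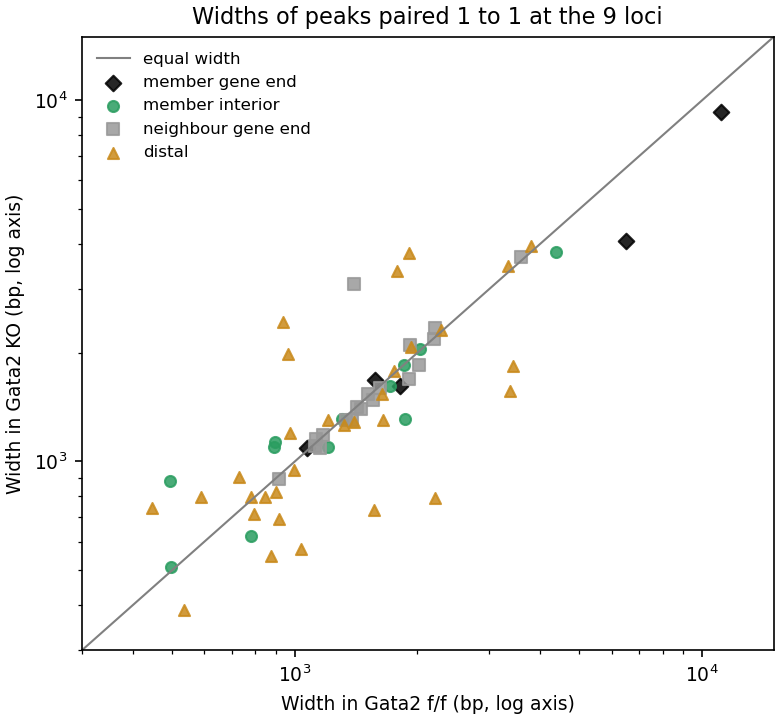
Width in KO (y axis) against width in f/f (x axis), both in bp on log axes, for the 67 peaks of the 9 loci paired 1 to 1, by position, with the line of equal width. Most points lie near the line, and the 14 pairs that differ by at least 1.5-fold lie on both sides of it, 7 on each.

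Other genes of the complex were read from a list of 27 GATA factors, LIM-only and LDB1 relatives, SSBP proteins that stabilise LDB1, ID inhibitors of E proteins, corepressors and partner factors. Of these, 24 had a peak in their window, 12 with lower and 12 with higher coverage in KO, and a median difference of 0.06 points. Past 1.5-fold, 4 were lower in KO and 0 higher, beside the backgrounds of 7.52% and 10.2% given above. These counts are for 100 kb flanks and all listed peaks, and are not given under the stricter limits. The 4 were Gata2, the deleted gene, with a difference of -4.60 points, Erg, an ETS factor gene, at 8.48% in f/f and 5.29% in KO, Lmo1 and Lmo3. Lmo1, a LIM-only relative of Lmo2, was the only one marked at a gene end by f/f alone, at 2.05% and 0.887%. Lmo3 had 2.51 kb under f/f peaks and none under KO peaks. Ssbp2 had 5.95% and 3.97%. The largest differences toward KO were at Rcor1, a corepressor gene (7.37% and 10.1%), Fli1, an ETS factor gene (6.32% and 8.69%), and Ssbp4 (19.8% and 21.8%). Of the inhibitors, Id1 had 14.5% and 12.8%, Id2 4.35% and 4.97% and Id3 3.77% and 4.30%, and Id4 had no peak in either list.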

How the data were processed

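Peak lists of 1 Gata2 f/f and 1 Gata2 KO library were used. Per the submitters' processing notes, the build was mm10 and the tools MACS2, BWA and SAMtools. For tool versions, options, control library and depth: not given in the sources used here. Nothing shows pooling. The authors deposited for each peak a score (not used), a fold enrichment (a ratio) and the -log10 p-value and -log10 q-value. A more sensitive list holds more and wider peaks, so that fold and -log10 values were otherwise used inside 1 list at a time. The -log10 q and 3-fold limits named below were the exception, as 1 limit was set on both lists. Peaks outside chromosomes 1 to 19, X and Y were left out. Overlap counted from 1 bp, in Python 3.11.15 with pandas 2.3.3, numpy 2.4.6 and scipy 1.17.1, and the routines were tested on simulated peaks. Gene bounds came from a RefSeq table (GRCm38.p6) without exons, so that interior peaks may be exonic or intronic. Coverage is the share, in percent, of a gene plus 100 kb flanks that lies under peaks. Gene-end peaks lay within 1000 bp of either end. Distal peaks were away from every gene end. The 1.5-fold limit is descriptive. The genes, lists and alternatives were chosen with earlier results of these data known. All 9 genes are named. Of the 27 partners, those with an end peak in 1 list alone and the 3 largest differences each way are named by rule. Lmo3 and the Id genes were named after their values were seen, and the genes of the label check were added last. Alternatives were a -log10 q from 5 upward, equal peak numbers (34272), at least 3-fold enrichment, flanks of 25 and 50 kb, 50% overlap, and gene-end windows of 500 and 2000 bp.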

Additional observations from a re-analysis of the deposited data

How the results depend on the processing

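The median coverage difference of the 9 loci (KO minus f/f, 0.33 points) had no stable sign. It was -0.52 with a -log10 q from 5 upward, 0.062 with equal peak numbers, -0.85 among peaks of at least 3-fold enrichment, -0.26 with 25 kb flanks and -1.40 with 50 kb flanks. The cause was not tested. The number of genes with lower coverage in KO was 8 and 7 under the stricter q and the 3-fold limit and 4 or 5 under the others. Tcf4, Tcf12 and Tal1 were lower in KO in each of these 5 settings. A -log10 q from 5 upward raised the share of KO peaks overlapped by an f/f peak to 96.7%. Other changes, 50% overlap included, kept both shares of overlapped peaks within their intervals. The median log2 width ratio of paired peaks (-0.019) was -0.033, -0.016, -0.033 and -0.012 with the stricter q, equal numbers, 3-fold enrichment and 50 kb flanks, and turned to 0.0025 with 25 kb flanks. Gene-end windows of 500 and 2000 bp moved no class count by over 1.5 times. No paired analysis was possible because each genotype has 1 library, and no replicate could be left out. Depth is unknown, so that a missing peak may be a missing call.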
